A study of Homo sapiens with 12 samples.

Results

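A set of 12044 short open reading frames (ORFs) that start at CTG or GTG in transcripts typed as non-coding RNA (ncRNA) is described here across ribosome footprints of HEK293 cells. They were taken from a table of 149028 called ORFs as every ncRNA ORF with either start codon, leaving out 3 on the mitochondrial chromosome and 168 inside GAS5, ZFAS1 or SNHG genes. They are 12044 of 46899 ncRNA ORFs. CTG opened 7128 of them (59.2%) and GTG 4916.

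The study sequenced ribosome-protected fragments of HEK293 cells, a human embryonic kidney line, after complexes had been parted on gradients into pooled monosome fractions (1 ribosome on an RNA) and pooled polysome fractions (several). Cells went without amino acids for 1 h in EBSS with MEM vitamins and 10% serum, went without serum for 2 h, or grew in log phase in DMEM with 10% serum. All cells were lysed in buffer with cycloheximide, and fragments of 17 to 34 nt were kept. The 6 groups are thus amino acid starvation, serum starvation and log phase monosomes, and polysomes of the same 3 conditions, with 2 libraries each, lettered A and B in the table. No label says that A and B are separate cultures, so p-values measure the spread between these libraries, which may be technical.

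Ribosomes mostly begin at AUG in a favourable context, with a purine 3 bases before the codon and a G just after it. CUG and GUG differ from AUG by a single base. Such near-cognate codons are used less efficiently, and CUG is the best used of them. Long non-coding RNAs (lncRNAs), processed transcripts of coding genes and pseudogenes (decayed gene copies) can all carry short ORFs. Small structured RNAs such as small nucleolar RNAs (snoRNAs), which guide modification of ribosomal RNA, and small nuclear RNAs (snRNAs) of the spliceosome act as RNA and are not known as messages.

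The context of the start codon is shown for some ORFs of the set with high totals and a RefSeq host, and for 3 lncRNA ORFs. All have their start in a RefSeq window (GRCh38.p14) from 250 bases before to 50 bases after a gene start. ORFs without a RefSeq host are not shown, though some had totals as high. The ORF caller's own p-value was 0.0054 for POLR1C and 0.362 for H2AZ1. For the PHB1 ORFs it was 0.991 and 0.674, and for CFL1, ENSA and SRSF9 0.706, 0.999 and 0.999. JPX, LINC00665 and ARRDC1-AS1 had 0.879, 0.801 and 0.844, so most of the starts shown have little support from the caller. Each sequence has 12 bases before the start codon, the codon in capitals and 15 bases after it, and is given 5′ to 3′ on the ORF's strand.
CFL1, chr11:65858140-65858169, minus strand: tcccggcagcggCTGcagcgctctcgtctt
PHB1, chr17:49414858-49414887, minus strand: catgcgcagtatGTGtggttggggaattca
PHB1, chr17:49414856-49414885, minus strand: tgcgcagtatgtGTGgttggggaattcatg
ENSA, chr1:150629572-150629601, minus strand: ccgccattttgaCTGagcaaccctagtgac
H2AZ1, chr4:99950226-99950255, minus strand: acgaaggagtagGTGgtgggatctcaccgt
SRSF9, chr12:120469629-120469658, minus strand: ggcggcggcgacGTGggctgcggcgggccc
POLR1C, chr6:43517083-43517112, plus strand: acctctagtctcGTGgagagattgaagatg
JPX, chrX:73944328-73944357, plus strand: gccctagggctaGTGgaagacttaagatgg
LINC00665, chr19:36331679-36331708, minus strand: tccaggtgcaaaGTGggaagtgtgagtcct
ARRDC1-AS1, chr9:137618676-137618705, minus strand: cgttttggtgggCTGgccgaagaaggagaa

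Of 613 ORFs of the set with a window, 610 had the called start codon at the called position. All 246 that lay wholly inside a window ended at a stop codon, 135 at TGA, 67 at TAG and 44 at TAA. The second PHB1 ORF starts 2 bases after the first, in another frame. Over the 312 ORFs with a window that were retained (defined below), 50.3% had a purine at -3 and 40.4% a G at +4, counted from the codon's first base as +1, and 18.9% had both. The same shares were 72.2%, 54.6% and 42.6% in 108 ncRNA ORFs with an ATG start, and 54.3%, 32.1% and 18.7% in 427 with any other start. A G at +4 followed 50.8% of 132 GTG starts and 32.8% of 180 CTG starts. Among the sequences shown, both favoured bases were present in SRSF9, LINC00665 and ARRDC1-AS1, and windows this close to a gene start are a small and selected share of the set.

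Most of these ORFs did not lie in genes that RefSeq annotates as non-coding. By position, and by strand where RefSeq lists it, 9271 (77.0%) lay in protein-coding genes, 1653 (13.7%) in pseudogenes, and 687 (5.70%) in lncRNA genes. For many pseudogenes and small RNAs no strand is listed, so such a host may lie on the other strand. ORFs of one frame can overlap ORFs of another called type, so each codon was counted once, for coding ORFs first and then for the ORF with the higher total. This retained 9445 ORFs with 1169088.7 footprints, whereas 1203 ORFs that shared codons with coding ORFs held 55.5% of the 3353124.6 footprints of the whole set. High totals of the set were among those: an ORF of 372 nt in SOD1, the superoxide dismutase, had 71671.0 footprints, and one of 999 nt in GNAS, a G protein subunit, had 62782.3. ORFs in RPS18 and in CFL1, which encodes the actin-binding protein cofilin, had 49779.9 and 42834.0. Of these 4 ORFs, none is in the comparisons below.

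The retained ORFs were classed by their host. Coding genes hosted 6836, of which 2357 lay over called coding ORFs in another frame (34.0% of footprints) and 4479 lay clear of them (21.3%). Pseudogenes of ribosomal proteins were 286 ORFs, 3.03% of the set, but held 15.8% of its footprints. Another 1252 ORFs in other pseudogenes held 18.3%. Structured RNA genes hosted 125 ORFs (1.32%) with 5.28% of footprints, and pseudogenes of structured RNAs 39 with 0.609%. Nuclear pseudogenes of mitochondrial DNA hosted 13 ORFs with 0.566%, lncRNA genes 615 (6.51%) with 2.16%, and no RefSeq gene was listed for 279 (2.95%) with 2.03%.

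**Figure D1:**
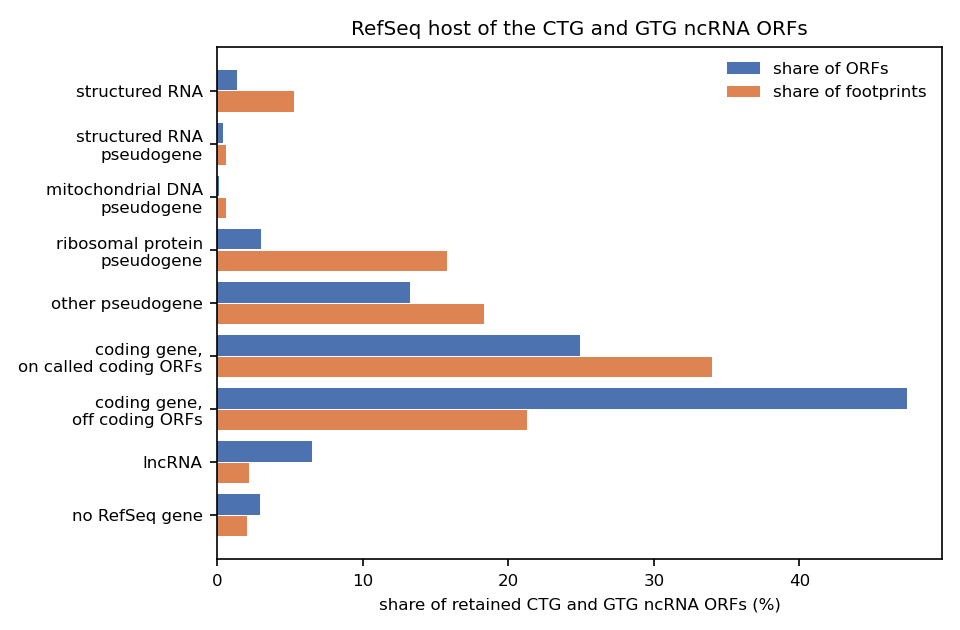
Share of the 9445 retained ORFs (blue) and of their footprints (orange) by RefSeq host, both in percent. Structured RNA genes and ribosomal protein pseudogenes hold more of the footprints (5.28% and 15.8%) than of the ORFs (1.32% and 3.03%), and lncRNA genes hold less (2.16% against 6.51%).

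Over the whole set the ORFs were short, with quartiles of 21, 45 and 87 nt and a range of 6 to 6708 nt, and 3248 spanned more than 1 exon block. The median retained ORF had 22 footprints over 12 libraries and 2656 had under 10, while 163 with at least 1000 held 49.9%. The caller's own p-value was under 1e-4 for 99 ORFs and at least 0.5 for 7365 (61.2%). Of the 79 retained ones under 1e-4, 39 lay in coding genes, 28 in pseudogenes and 7 in lncRNA genes. The lowest was that of a 1059 nt ORF in PAIP1P2, a pseudogene of a poly(A)-binding protein partner, followed by a 744 nt ORF in LOC643576 (1.4e-15).

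Monosome libraries held 354506.5 to 1204002.4 footprints and polysome libraries 2477822.6 to 7683728.5 once each codon was counted once, and the set's part of these was 10500.7 to 66971.2 and 63599.2 to 218194.1. Coding ORFs of NEFM, NEFL, VIM and LIN28B, which HEK293 cells express, had 26229.3, 9724.8, 2360.4 and 1096.2 footprints, KRT8 had 19.1, and no coding ORF was found for KRT18 or for PTPRC, ALB, HBB and CDH5 of other cell types (COL1A1 had 51.9). Monosome library A stood apart in amino acid starvation and in log phase. There 1 internal ORF of 9 nt, which is not in the set, held 47.5% and 47.9% of all footprints, and it held at most 0.935% elsewhere. Mitochondrial ORFs held 4.56 to 11.6% of monosome and 0.0753 to 0.340% of polysome footprints.

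The set as a whole took overlapping shares of the fractions. Its share of retained footprints was 1.40% and 4.12% in amino acid starvation monosomes, 4.08% and 7.96% in serum starvation monosomes, and 1.78% and 4.79% in log phase monosomes (A then B). In polysomes it was 2.57% and 3.96%, 3.00% and 3.71%, and 2.84% and 4.11% in the same order of conditions. The fractions overlapped, with 4.02% ± 2.37 in monosomes and 3.37% ± 0.644 in polysomes (SD, n = 6 each). Library B was above library A in every one of the 6 groups. Of all retained ncRNA footprints the set made up 16.2% ± 5.15 in monosomes and 21.3% ± 4.45 in polysomes.

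Within the set, the host classes parted by fraction. Structured RNA ORFs held 0.888% ± 0.664 of monosome and 0.0809% ± 0.0731 of polysome footprints, an 11-fold difference of the means. Their lowest monosome library had 0.276% and their highest polysome library 0.170%, so the fractions did not overlap. Within a letter the means were 0.386% and 0.0176% in monosomes and polysomes of library A, and 1.39% and 0.144% in those of library B. Pseudogenes of structured RNAs held 0.117% ± 0.0849 in monosomes and 0.00909% ± 0.00987 in polysomes, and mitochondrial DNA pseudogenes 0.134% ± 0.0389 and 0.00316% ± 0.00220 (n = 6 each), also without overlap.

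Other pseudogenes ran the other way, with 0.354% ± 0.148 of monosome and 0.681% ± 0.101 of polysome footprints and no overlap. Ribosomal protein pseudogenes (0.357% ± 0.173 in monosomes and 0.523% ± 0.203 in polysomes) and ORFs over called coding ORFs (1.13% ± 0.983 and 1.19% ± 0.268) overlapped between fractions. ORFs in lncRNA genes held 0.143% ± 0.0623 in monosomes and 0.0646% ± 0.00456 in polysomes and were higher in the monosome library of 5 of 6 pairs of a condition and letter. ORFs under 30 nt held 1.501% ± 1.22 in monosomes and 0.484% ± 0.137 in polysomes, and those of 300 nt or more 0.270% ± 0.124 and 0.608% ± 0.0630. The longest class did not overlap between fractions and was lower in monosomes in all 6 pairs.

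**Figure D2:**
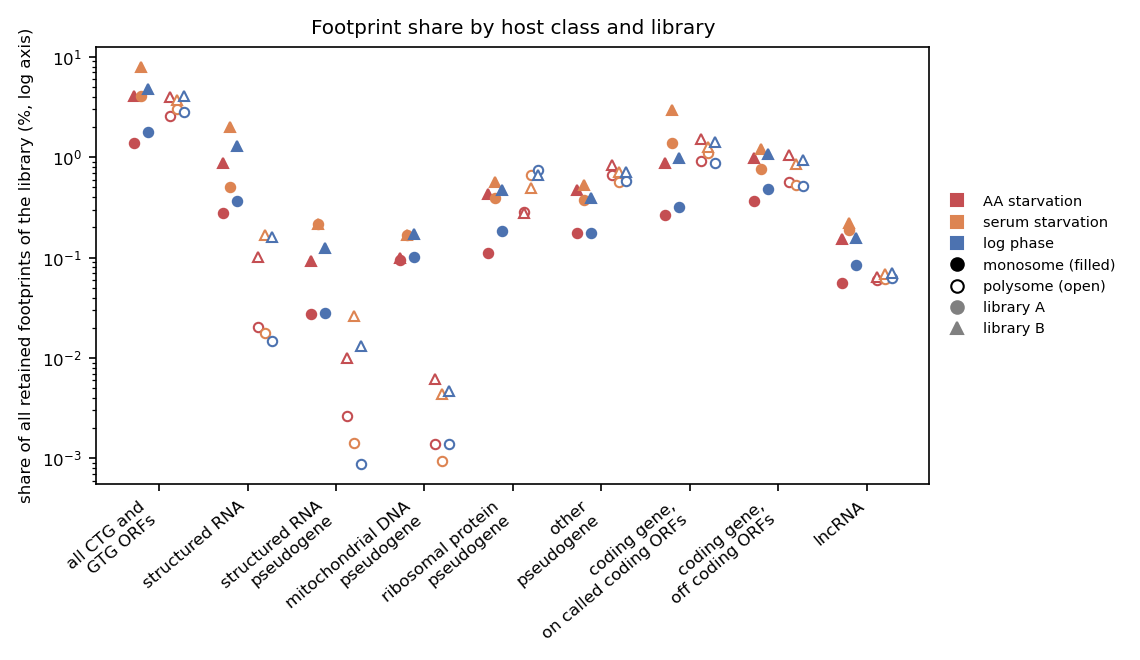
Share of all retained footprints in each library (percent, log axis) for the whole set and 8 of its host classes, with monosome libraries as filled and polysome libraries as open symbols, colours for the conditions and shapes for the letters. Structured RNA ORFs run from 0.276% upward in monosomes and reach at most 0.170% in polysomes, whereas other pseudogenes are lower in every monosome library than in any polysome library.

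The test of each ORF asked whether its footprints were higher in monosomes than in polysomes, averaged over the 3 conditions, relative to the other ORFs. Counts rounded to whole numbers were fitted with edgeR's quasi-likelihood test across all 26467 ORFs with enough counts, and p-values were adjusted over all of them by Benjamini-Hochberg. This left 1955 ORFs of the set, mostly the more abundant. Values per library below are counts scaled for library size by TMM, the trimmed mean of M-values (scaled CPM).

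At an adjusted p under 0.05, 438 of the 1955 were higher and 372 lower in monosomes. Over all tested ORFs 16.7% were higher and 22.8% lower (39.5% in either direction), and the set's shares of 22.4% and 19.03% are to be read against these. The median log2 fold change was -0.18 in the set and -0.48 over all tested ORFs. For 10 of the 1955 a fraction had no counts in any library, and with these set at a floor of 3 counts the medians of the set and of every host class were as given here. Monosome and polysome values did not overlap for 347 (17.7%) of the set and for 19.5% of all tested ORFs. When the library letter was added to the model (the replicate block), 566 were higher and 536 lower, against 22.5% and 32.1% of all (54.5% in either direction).

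Structured RNA ORFs were mostly higher in monosomes. Of 93 tested, 81 were higher and none lower, with a median log2 fold change of 3.99. Rare ORFs of this class could pass the filter through the monosome libraries where they are high, as RNVU1-4 with 40 monosome and 1 polysome counts. For such ORFs the calls are a description and no support for a direction. Many are copies with equal rounded values in all 12 libraries: the 93 hold 72 distinct sets of values, of which 60 were higher, and 13 ORFs in RNU2-1, a U2 snRNA gene, and in LOC-named genes share 1 set. Without serum starvation monosome library B the count of 81 was 57. U3 snoRNA genes (SNORD3 and copies), which act in the first cuts of the ribosomal RNA precursor, gave 13 higher of 13, but these hold only 4 distinct sets of values, with log2 fold changes of 3.58, 4.63, 6.46 and 6.63. Box H/ACA snoRNAs, which guide pseudouridylation, gave 13 of 15 (median 4.51), and other box C/D snoRNAs, which guide ribose methylation, 13 of 17 (3.44). U1 snRNA and its variants, which recognise the 5′ splice site, gave 11 of 12 (3.90), U5 snRNA 5 of 5 (3.99), and scaRNAs of Cajal bodies 4 of 4 (3.57). The 7SL RNA of the signal recognition particle and 7SK RNA together gave 4 of 7 (2.44), and Y RNAs none of 2 (2.04). The 7 retained microRNA ORFs were too rare to test. Other start codons gave the same picture in structured RNA genes. There 40 were higher and 0 lower of 51 with an ATG start (median 3.44), and 175 higher and 1 lower of 219 with any other start (3.94).

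The 12 nt CTG ORF of SNORD3A (chr17:19188068-19188079, hg38, plus strand) had 1179 and 577 scaled CPM in amino acid starvation monosomes, 384 and 645 in serum starvation monosomes, and 1458 and 964 in log phase monosomes. Its polysome values were 13.3 and 4.06, 7.55 and 11.1, and 12.9 and 7.13 in the same order. Every monosome library was far above every polysome library. The log2 fold change was 6.46 ± 0.55 (SE, n = 6 libraries each, adjusted p = 2.4e-06 by edgeR's quasi-likelihood test). SNORD3C, a copy of the gene, had the same values in all 12 libraries, so these are not independent measurements.

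A 15 nt GTG ORF in SNORD17 (chr20:17962714-17962728, minus strand) had 28 to 219 scaled CPM in monosomes and 0 to 1.33 in polysomes. The fractions lay far apart, and its log2 fold change of 7.48 ± 0.72 (adjusted p = 5.4e-06) was the largest among the named structured RNAs. RNU5E-4P, a U5 snRNA pseudogene with a 27 nt GTG ORF (chr1:11909845-11909871, minus strand), had 192 to 1652 in monosomes and 2.76 to 4.34 in polysomes (7.23 ± 0.62, adjusted p = 2.5e-06). It was the top ORF of the set in serum starvation monosome library A.

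Not every structured RNA passed. SNORA62, an H/ACA snoRNA with a 27 nt ORF, had 29.7 to 2275 scaled CPM in monosomes (median 335) and 18.9 to 531 in polysomes (median 159), which overlap, with a log2 fold change of 1.72 ± 1.10 and an adjusted p of 0.217. Without serum starvation monosome library B it was -0.20. The Y RNA RNY1, a partner of the Ro autoantigen, likewise overlapped, with medians of 171 in monosomes and 23.8 in polysomes (2.07 ± 1.00, adjusted p = 0.111, and -2.19 without the same library). RN7SK, which holds the elongation factor P-TEFb, was higher with 3.10 ± 0.53 (adjusted p = 0.00059). Identical values in another gene copy were frequent here: of 64 structured RNA ORFs with at least 100 footprints, 26 (40.6%) had a copy elsewhere in the genome with the same rounded value in all 12 libraries, against 6.03% of 1659 such ORFs of the set and 0 of 52 in lncRNA genes.

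Pseudogenes of mitochondrial DNA gave 9 higher of 9 tested, with a median log2 fold change of 5.54. Here too a rare ORF could pass the filter through monosomes alone, as a 54 nt ORF of MTCO2P12 with 36 and 0 counts. In the other ncRNA ORFs of this class, 6 of 6 with an ATG start and 74 of 75 with any other start were higher. MTCO2P12, a nuclear copy of a cytochrome oxidase subunit gene with an 81 nt CTG ORF (chr1:632871-632951, plus strand), had 380 to 1340 scaled CPM in monosomes and 2.46 to 13.5 in polysomes (7.24 ± 0.61, adjusted p = 2.4e-06). Its neighbour MTCO1P12, with 132 nt, had 195 to 437 in monosomes and 5.67 to 16.6 in polysomes (4.91 ± 0.49, adjusted p = 7e-06). The fractions did not overlap in either. Of 13 retained ORFs of this class, 6 had the codon, the length and, within 0.5 footprints, the value in every library of an ORF on the mitochondrial chromosome itself. MTCO1P12 was one of these, with 1431 footprints in both places, so the footprints of these 6 cannot be assigned to the nuclear copy. For the other ORFs of the class, those of MTCO2P12 among them, only a match to a whole mitochondrial ORF was looked for. Whether their footprints come from the nuclear copy or from mitochondrial RNA was not tested. Like the mitochondrial share given above, the share of the class was higher in monosomes than in polysomes. Whether these shares moved together between libraries of a fraction was not tested.

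**Figure D3:**
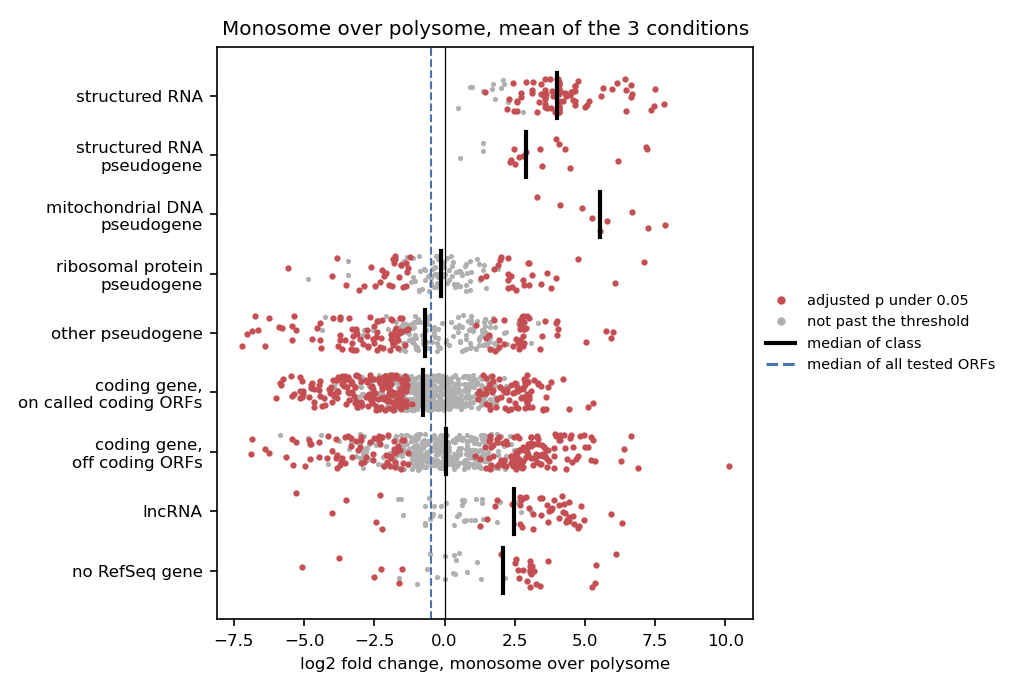
Log2 fold change, monosome over polysome, of each of the 1955 tested ORFs by host class, with called ORFs in red, the class median as a black bar and the median of all tested ORFs (-0.48) dashed. Class medians are 3.99 in structured RNA genes, 5.54 in mitochondrial DNA pseudogenes, 2.47 in lncRNA genes and -0.69 in other pseudogenes.

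ORFs in lncRNA genes were more often higher than lower in monosomes, with 43 higher and 6 lower of 85 tested, 66 of 85 above 0 and a median log2 fold change of 2.47. That median depends on which rare ORFs are let in: with at least 10 counts in 2 libraries as the filter it was -0.36 over 119 ORFs, of which 24 were higher and 6 lower. In the other ncRNA ORFs of the table, lncRNA genes gave 53 higher and 5 lower of 89 with an ATG start (median 2.46), and 171 higher and 14 lower of 308 with any other start (median 2.76).

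A list of 24 lncRNAs was looked up by name, and 14 hosted 65 ORFs of the set, of which 60 were retained and 23 tested. Of these 23, 18 were higher and none lower, but an ORF this rare could pass the filter through the libraries where it is high, so the count is a description and no support for a direction. With at least 10 counts in 2 libraries as the filter 14 were tested, of which 10 were higher, and without a filter 19 of 52 were higher and none lower. MALAT1, a nuclear speckle RNA, hosted 14 and NEAT1, the scaffold of paraspeckles, 13. Their retained ORFs had 1866.9 and 358.4 footprints. TUG1, linked to Polycomb, hosted 8, none of them abundant enough to test.

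The 81 nt GTG ORF of JPX, an activator of X inactivation, lies at chrX:73944340-73944420 on the plus strand, and its start is among the sequences above. It had 36.9 and 28.9 scaled CPM in amino acid starvation monosomes, 101 and 49.2 in serum starvation monosomes, and 110 and 108 in log phase monosomes. In polysomes it had 3.55 and 3.69, 5.67 and 4.89, and 6.20 and 7.13. The fractions did not overlap, and the log2 fold change was 3.66 ± 0.40 (SE, adjusted p = 1.7e-05).

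The most abundant MALAT1 ORF was 180 nt long with a GTG start (chr11:65500421-65500600, plus strand). It had 33.9 and 96.5, 112 and 210, and 103 and 19.2 scaled CPM in monosomes of the 3 conditions and 17.3 and 9.78, 21.7 and 11.4, and 8.79 and 12.9 in polysomes. One log phase monosome library lay within the polysome range. The log2 fold change was 2.68 ± 0.50 (adjusted p = 0.0011). Of the 7 tested MALAT1 ORFs, another of 174 nt turned to -0.094 without amino acid starvation monosome library B. In MIR17HG, the host of the miR-17 cluster, a 21 nt GTG ORF (chr13:91351270-91351290) had 23.2 to 63.9 in monosomes and 0 to 1.78 in polysomes (6.30 ± 0.70, adjusted p = 2e-05), and it overlaps the end of the MIR19B1 hairpin. It could pass the filter through monosomes alone, so its call is a description and no support for a direction. Of the 3 tested MIR17HG ORFs, another of 63 nt did not pass without a filter (1.68, adjusted p = 0.0512). That ORF was 1.61 without serum starvation monosome library A. One of 87 nt was 2.22 without amino acid starvation monosome library A.

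Of 6 tested NEAT1 ORFs, 4 were higher, and each of these 4 lost its call without 1 or more monosome libraries. The largest change was that of a 12 nt ORF, with 0 to 48.2 scaled CPM in monosomes and 0 to 4.74 in polysomes, which overlap (4.74 ± 0.97, adjusted p = 0.0021), and it was 2.42 without serum starvation monosome library B. A 162 nt ORF in DANCR, a host of snoRNAs, had 1.93 to 20.6 in monosomes and 0 to 0.738 in polysomes, without overlap (4.79 ± 0.71, adjusted p = 0.00021). The ORF of EPB41L4A-AS1, another snoRNA host, was higher with 3.46 ± 0.63 (adjusted p = 0.00094), and that of CRNDE with 4.45 ± 0.96 (adjusted p = 0.0029). ORFs as rare as these and those of NEAT1 and DANCR could pass the filter through the monosome libraries where they are high. Their calls are a description and no support for a direction. The 1 tested PVT1 ORF was higher too, and its log2 fold change was 1.83 without amino acid starvation monosome library B.

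One lncRNA ORF that fell in monosomes and one that did not pass are given beside these. A 213 nt ORF in DLEU1, a gene of a region deleted in leukaemia, had 1.97 to 5.25 scaled CPM in monosomes and 5.93 to 34.1 in polysomes, without overlap, and fell by 2.24 on the log2 scale (SE 0.64, adjusted p = 0.0135). VPS9D1-AS1, with one of the longer ORFs (537 nt), had 12.4 to 29.7 in monosomes and 18.4 to 39.1 in polysomes, which overlap (-0.41 ± 0.41, adjusted p = 0.434). Both were chosen after their values were seen, and neither is in the list of 24.

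Pseudogenes of coding genes other than those of ribosomal proteins were more often lower than higher in monosomes. So were all tested ORFs, with 22.8% lower and 16.7% higher and a median of -0.48, and the counts are to be read against these. Of 270 tested ORFs in pseudogenes other than those of ribosomal proteins, 82 were lower and 43 higher in monosomes (median -0.69), or 80 and 34 of 251 distinct sets of values. PPIAP22, a pseudogene of cyclophilin A with a 483 nt GTG ORF (chr21:18857794-18858276, plus strand), had 286 and 214, 79.97 and 96.4, and 101 and 99.4 scaled CPM in monosomes and 1355 and 461, 565 and 640, and 944 and 547 in polysomes. Every monosome library was below every polysome library. It fell by 2.51 on the log2 scale (SE 0.42, adjusted p = 0.00058), and the coding ORF of its parent PPIA fell by 2.90.

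PAIP1P2 and its parent PAIP1 fell by 1.40 (SE 0.38, adjusted p = 0.0096) and 1.28. SNRPA1P1, a copy of a U2 snRNP gene with 759 nt, fell by 1.96 (SE 0.40, adjusted p = 0.0022) and its parent by 1.27. Whether footprints of parent and copy can be told apart was not tested for these or for PPIAP22. LOC643576, with 744 nt, had 27.5 to 73.9 scaled CPM in monosomes and 139 to 257 in polysomes, without overlap, and fell by 2.23 (SE 0.38, adjusted p = 0.00057).

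Several pseudogene ORFs had almost no monosome footprints. ATP5MC1P5, a copy of an ATP synthase subunit gene with 66 nt, had 0 in all 6 monosome libraries and 3.87 to 12.5 scaled CPM in polysomes, which makes it at least 9.55-fold lower in monosomes at a floor of 3 counts over the 6 libraries. By the same floor SPCS2P1 was at least 8.38-fold and PRDX1P1 at least 7.61-fold lower. CHCHD2P9 had 1 monosome count against 797 in polysomes, a depth-corrected monosome over polysome ratio of 0.00863 (exact 95% interval 0.000218 to 0.0482, for counting error only). An ORF of the set inside the parent gene CHCHD2, clear of coding ORFs, had nearly the same counts, 1 and 807 (ratio 0.00852). Whether footprints of that ORF and of CHCHD2P9 can be told apart was not tested. The coding ORFs of the parents ATP5MC1, SPCS2 and CHCHD2 fell by less, by 1.32, 1.75 and 1.69 on the log2 scale. That of PRDX1 fell by 3.22, which the bound for PRDX1P1 does not exceed, so these cannot be ranked. HMGN2, a nucleosome-binding protein gene, has a 6 nt GTG ORF (chr1:26472511-26472516) that had 0 to 13.6 in monosomes and 17.8 to 536 in polysomes and fell by 6.41 (SE 0.92, adjusted p = 0.0002). Log phase polysome library B held 53.5% of its footprints. A 6 nt GTG ORF in the pseudogene HMGN2P4 had similar counts, with 2197.3 footprints in that library against 2328.6 in HMGN2, and fell by 6.39. Whether footprints of these ORFs in HMGN2 and HMGN2P4 can be told apart was not tested.

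Ribosomal protein pseudogenes gave 27 higher and 28 lower of 137 tested, with a median of -0.13 that turned to 0.05 under RLE scaling. RPL41P2, a copy of the gene for the very short protein RPL41, was far on the monosome side. Its 75 nt GTG ORF (chr15:28315704-28315778, plus strand) had 98.5 to 832 scaled CPM in monosomes and 0.738 to 3.96 in polysomes, without overlap (7.12 ± 0.53, adjusted p = 1.9e-06). The coding ORF of RPL41 itself had a log2 fold change of 5.53. On the other side, RPS7P11 (504 nt) and RPL23AP65 (111 nt) fell by 2.11 (SE 0.45, adjusted p = 0.0025) and 2.07 (SE 0.47, adjusted p = 0.0037), and their parents by 2.21 and 1.84. Copy and parent were not always close, as RPLP1P5 had a log2 fold change of 1.90 and RPLP1 one of -0.05. For these pairs too, whether the footprints can be told apart was not tested.

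ORFs in coding genes were counted by position. Those over called coding ORFs were 180 lower and 75 higher of 731 (median -0.78), beside 1836 lower and 424 higher of 4961 coding ORFs (median -0.83). Those clear of coding ORFs were 70 lower and 122 higher of 567 (median 0.05). For comparison, CTG or GTG ORFs upstream of coding ORFs gave 157 lower and 80 higher of 688 (median -0.81).

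Length and the fold change moved together in these data. Under 30 nt, 135 were higher and 71 lower of 359 (median 0.88). From 30 to 89 nt the counts were 200 and 140 of 786 (-0.17), from 90 to under 300 nt 102 and 133 of 725 (-0.32), and at 300 nt or more 1 and 28 of 85 (-0.84). Host class differs with length: within coding genes, ORFs under 30 nt gave 35 higher and 52 lower of 200. CTG starts gave 262 higher and 207 lower of 1130 (-0.16) and GTG starts 176 and 165 of 825 (-0.21).

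Single libraries decided some values. A 21 nt GTG ORF in RPL37 (chr5:40834536-40834556, minus strand) had 15670 scaled CPM in serum starvation monosome library B, 58.5 to 1282 in the other monosome libraries and 20.4 to 225 in polysomes. That library held 74.0% of its footprints, which were 23.8% of the set's there, and the ORF passed the test (3.45 ± 0.94, adjusted p = 0.0108). Without that library its log2 fold change was 1.33 (adjusted p = 0.157), and without amino acid starvation monosome library B 2.33 (adjusted p = 0.0552). A 9 nt ORF in MRPL49 (chr11:65127243-65127251) had 473.9 footprints in amino acid starvation monosome library A and 983.5 in log phase monosome library A, the same 2 libraries that the internal ORF fills, and 0 to 11.7 elsewhere. Over the set, 16 of 163 ORFs with at least 1000 footprints had over 50% of them in 1 library. MRPL49 was chosen after its values were seen.

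**Figure D4:**
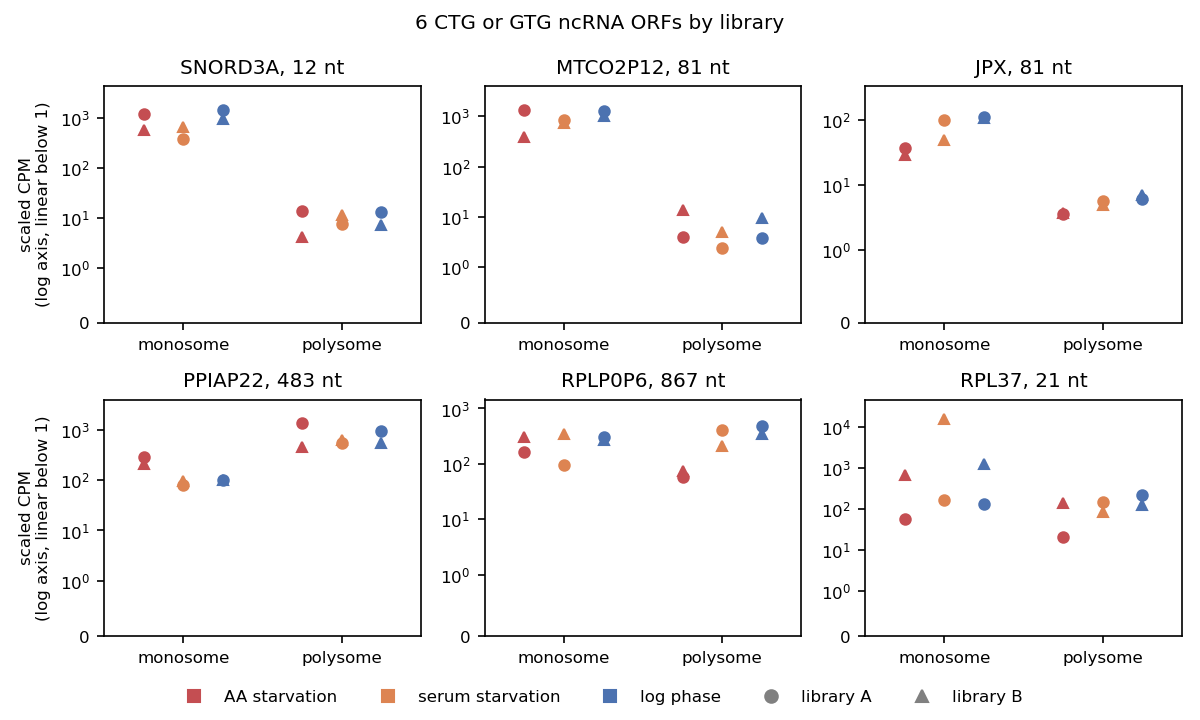
Scaled CPM (log axis, linear below 1) of 6 ORFs in each library, monosomes on the left and polysomes on the right, with colours for the conditions and shapes for the letters. SNORD3A, MTCO2P12 and JPX are higher in all monosome libraries, PPIAP22 is lower in all of them, RPLP0P6 is lowest in amino acid starvation polysomes (58.6 and 76.0), and RPL37 reaches 15670 in 1 library.

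The fractions were also compared within each condition. In amino acid starvation 72 ORFs of the set were higher and 6 lower in monosomes (over all tested ORFs 3.01% higher and 0.34% lower, 3.35% in all). In serum starvation there were 107 and 27 (4.59% and 2.13%, 6.73% in all), and in log phase 109 and 28 (4.99% and 1.79%, 6.78% in all). With the replicate block the counts were 290 and 112 in amino acid starvation (11.1% and 7.29%, 18.4% in all), 381 and 205 in serum starvation (15.6% and 14%, 29.6% in all), and 364 and 191 in log phase (14.9% and 11.9%, 26.8% in all). Structured RNA ORFs were 37, 40 and 40 of the higher calls and none of the lower ones. All 3 conditions called 55 ORFs higher, 30 of them in structured RNA genes, and 3 lower (570 and 42 of all 26467 tested, 2.15% and 0.159%), and no ORF was called in opposite directions. With the block these were 168 higher, 66 of them in structured RNA genes, and 34 lower (6.78% and 2.96% of all). The 23 ORFs of the lncRNA list gave 4, 8 and 9 higher and none lower, and 7, 19 and 15 higher with the block.

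These per-condition counts rest on few libraries. In refits, which test other numbers of ORFs, amino acid starvation had 0 calls in the set without either amino acid starvation polysome library, and 10 and 25 without monosome library A or B of that condition (10 and 23 of them among the 78). Serum starvation had 20 calls without serum starvation polysome library A and 63 and 53 without monosome library A or B (18, 53 and 51 of them among the 134). Log phase had 30 without log phase polysome library A and 35 and 40 without monosome library A or B (24, 33 and 39 of them among the 137). Libraries of other conditions moved the counts too: amino acid starvation had 38 without log phase monosome library A, and without amino acid starvation monosome library A or B serum starvation had 72 and 89 and log phase 67 and 86. Serum starvation had 212 and 219 without log phase polysome library A or B. The structured RNA counts were 0, 6 and 6 at the lowest in the 3 conditions.

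Starvation was compared with log phase within each fraction. No RNA libraries were used here, so less RNA and fewer ribosomes per RNA cannot be told apart. Without the block, edgeR's quasi-likelihood test called 0 ORFs of the set, and 0% of all tested ORFs, in each of the 4 comparisons. At an unadjusted p under 0.05 there were 35 of 1955 (1.79%, against 2.61% of all tested ORFs) in amino acid starvation and 65 (3.32%, against 3.94%) in serum starvation monosomes, and 121 (6.19%, against 5.87%) and 8 (0.409%, against 0.491%) in polysomes. DESeq2 called 1 and 0 of the set in monosomes and 5 and 0 in polysomes, against 16, 4, 82 and 0 of all 26467. How the ratio between fractions changed with either starvation likewise had 0 calls in the set (0% of all), with 44 and 25 at an unadjusted p under 0.05 (2.25% and 1.28%, against 2.13% and 1.62% of all). With the block there were again 0 calls in the set (125 and 79 unadjusted, which is 6.39% and 4.04% against 5.88% and 4.28% of all, and 0% and 0.068% of all tested ORFs called), so no difference of the fraction pattern between conditions was detected.

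With the block, polysomes of amino acid starvation gave 6 higher and 32 lower ORFs of the set (0.37% higher and 1.24% lower over all tested ORFs, 1.61% in all). Of the 32, 22 were ORFs of ribosomal protein pseudogenes and 6 lay in ribosomal protein genes. Ribosomal protein pseudogenes had a median log2 fold change of -1.75 over 137 ORFs, of which 6 were above 0, and ribosomal protein genes one of -1.49 over 49, of which 4 were above 0. The median over all tested ORFs was 0.00, over lncRNA ORFs -0.22 and over other pseudogenes -0.14. Without the block none of these 38 calls passed. The fall in ribosomal protein pseudogenes was not particular to CTG and GTG starts. With the block, 7 of 74 with an ATG start were lower (median -1.62), and 86 of 553 with any other start (median -1.67). Whether footprints of these pseudogenes and of their parent genes can be told apart was not tested.

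The share of ribosomal protein pseudogenes shows the same libraries directly. It was 0.287% and 0.279% of footprints in amino acid starvation polysomes, 0.666% and 0.496% in serum starvation polysomes, and 0.745% and 0.663% in log phase polysomes. Both amino acid starvation libraries lay below the 4 others. In monosomes the shares were 0.112% and 0.428%, 0.389% and 0.562%, and 0.186% and 0.468%, which overlap.

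RPLP0P6, a copy of the gene for stalk protein RPLP0 with an 867 nt GTG ORF (chr2:38481938-38482804), had 58.6 and 76.0 scaled CPM in amino acid starvation polysomes, 404 and 212 in serum starvation polysomes and 484 and 343 in log phase polysomes. Both starved values lay below the other 4. Against log phase it fell by 2.65 on the log2 scale (SE 0.63, adjusted p = 0.0294 with the block and 0.753 without it), and the coding ORF of RPLP0 fell by 2.76 with the block. In monosomes it had 163 and 305, 96.0 and 339, and 304 and 276 in the 3 conditions, which overlap.

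RPL13AP5, with 513 nt, had 30.6 and 40.6 scaled CPM in amino acid starvation polysomes and 346 and 212 in log phase polysomes, and fell by 3.06 (SE 0.66, adjusted p = 0.0227 with the block). Its parent RPL13A fell by 3.23. RPL12P41, with 135 nt, was rarer at 0.888 and 0.554 in amino acid starvation polysomes and 22.2 and 4.83 in log phase polysomes. It fell by 3.93 (SE 0.82, adjusted p = 0.0200 with the block), and RPL12 fell by 3.89. In both, the starved libraries lay below the log phase ones. The RPS12P11 and RPS12P32 ORFs have the same values in all libraries and count as 1 measurement, at -3.78, beside -3.05 for RPS12.

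Among the 6 higher ORFs were 2 in PKM, which encodes pyruvate kinase, and 1 each in HDAC1, a histone deacetylase gene, HNRNPK, an RNA-binding protein gene, KRI1 and API5P1. The 75 nt PKM ORF (chr15:72199367-72199441, minus strand) had 18.7 and 148 scaled CPM in amino acid starvation polysomes, 0.944 and 77.4 in serum starvation polysomes, and 0.172 and 26.4 in log phase polysomes. Library B was the higher one in every condition, and the groups overlapped. Its log2 fold change with the block was 3.53 ± 0.79 (adjusted p = 0.0260).

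**Figure D5:**
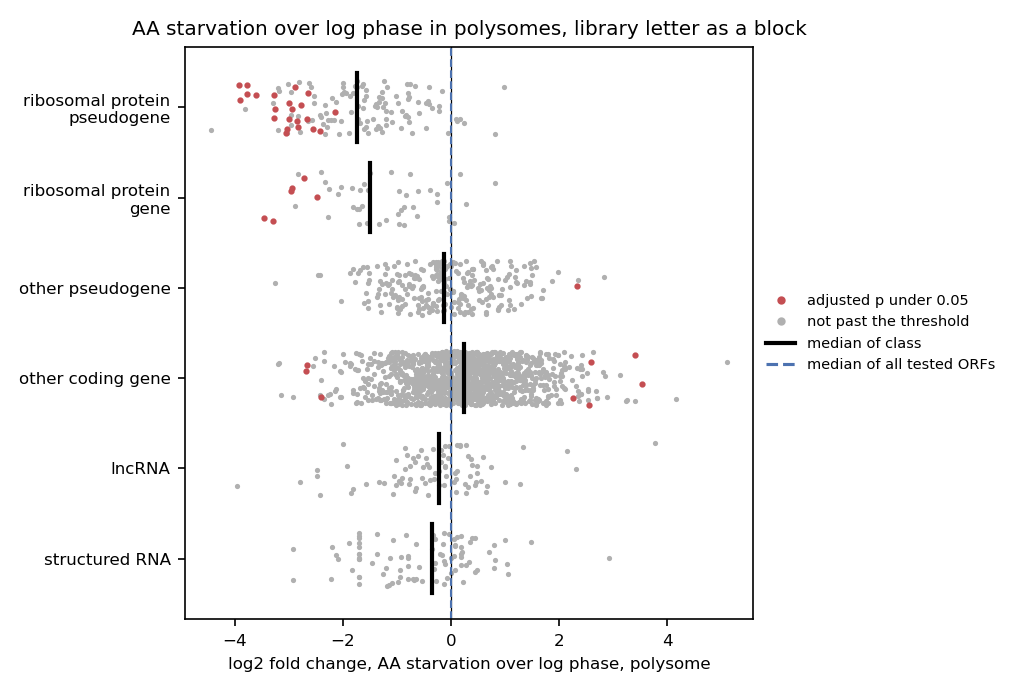
Log2 fold change in polysomes, amino acid starvation over log phase, with the library letter as a block, for tested ORFs of 6 host groups, with called ORFs in red and medians as black bars. Ribosomal protein pseudogenes (median -1.75, 22 of 137 lower) and ribosomal protein genes (median -1.49, 6 of 49 lower) lie left of the median of all tested ORFs.

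The other starvation comparisons had 1 call in the set with the block. SNORA13, an H/ACA snoRNA with a 12 nt CTG ORF (chr5:112161601-112161612), had 43.4 and 734 scaled CPM in serum starvation monosomes and 1.75 and 12.4 in log phase monosomes (0.0113% of all tested ORFs higher, 0.034% in either direction). Both serum starvation libraries were above both log phase ones, and the value of library B stands on 746.2 footprints. In amino acid starvation monosomes it had 0 and 9.65. With the block, edgeR called 0 ORFs in amino acid starvation monosomes (85 at an unadjusted p under 0.05, which is 4.35% against 5.97% of all) and 0 in serum starvation polysomes (34, which is 1.74% against 1.50%).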

How the data were processed

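Footprints of 12 libraries in 6 groups were analysed. The table gives expected counts of footprints per ORF and library, deposited by the authors as output of the ORF caller PRICE, with the caller's p-value, also deposited by the authors, for each ORF. Bowtie 1.0 and hg38 are listed per the submitters' processing notes with no role, and other steps are not given in the sources used here.

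Where ORFs shared codons, 1 was retained (coding types first, then the higher total). Hosts were named by position from RefSeq, for pseudogenes and small RNAs where strand is unlisted without it. Expected counts were rounded, filtered with filterByExpr (minimum count 10, minimum total 15), TMM-scaled and modelled by edgeR 4.0.16 quasi-likelihood in R 4.3.3 over the 6 groups, in 10 two-sided contrasts adjusted by Benjamini-Hochberg. The common biological coefficient of variation was 0.632, and 0.400 with the letter as a block. B minus A deviations correlated between all pairs of groups (r 0.212 to 0.761), so the letters were taken as pairs from the data. The labels number the replicates but do not use the letters. The members, lists and tests were chosen with earlier results of these data known. ORFs were named as the largest changes per direction without overlap, the highest totals, the smallest caller p-values, the largest starvation changes and the ORFs in the lncRNA and structured RNA lists. Alternatives were DESeq2 1.42.0, RLE scaling, other filters, the compared groups alone, all ORFs without removal of overlaps, the block, and leaving out each library. The fits were tested on simulated data. Intervals and floors cover counting error only, since the labels name 14 PCR cycles and no molecular identifiers. Sequences are from RefSeq GRCh38.p14. Y-linked ORFs are counted but not named.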

Additional observations from a re-analysis of the deposited data

How the results depend on the processing

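Counts of calls among the ORFs moved with the processing. Monosome over polysome averaged over conditions called 810, and 1401 without a filter (15.2% of those tested, against 15.5% of all tested ORFs), 1347 with overlapping ORFs all kept (39.9% against 39.7%), 1102 with the replicate block (56.4% against 54.5%) and 571 to 960 with each library left out. In amino acid starvation the 78 calls (3.99%, against 3.35% of all tested ORFs) were 168 by DESeq2 (8.59% against 8.10%). The block gave 402 (20.6% against 18.4%), the compared groups alone 157 (share of all not given) and leaving out a library 0 to 113. In serum starvation the 134 were 248 by DESeq2, 237 without a filter, 586 with the block, 315 with all overlapping ORFs and 20 to 219 with a library left out. In log phase the 137 (7.01% against 6.78%) were 228 by DESeq2 (11.7% against 11.9%) and 555 with the block (28.4% against 26.8%). They were 272 with all overlapping ORFs (8.06% against 8.30%) and 30 to 194 with a library left out. From 0 calls, DESeq2 gave 1 in amino acid starvation monosomes (0.0512% against 0.0605%) and 5 in polysomes (0.256% against 0.310%). The block gave 38 in amino acid starvation polysomes (1.94% against 1.61%) and 1 in serum starvation monosomes (0.0512% against 0.0340%). No filter gave 3 in serum starvation monosomes (0.0325% against 0.0639%) and 4 for the serum starvation ratio (0.0434% against 0.0508%). Leaving out a library gave 0 to 0 in these starvation comparisons.

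Of these 810 calls 54.1% were higher in monosomes (42.3% of the calls over all tested ORFs), and the share was 59.6% under RLE scaling (47.5% over all, all-ORF median -0.35), 62.7% by DESeq2 (50.3%), 28.6% without a filter (21.1%) and 42.7% with at least 10 counts in 2 libraries (33.5%). The set's share of polysome footprints was 3.37%, 5.26% with all overlapping ORFs and 3.22 to 3.52% with a library left out, and that of monosomes 3.24 to 4.55%. Of 56 named ORFs followed, 6 turned direction with 1 library left out: without amino acid starvation monosome library B CYTOR (range over libraries left out -1.06 to 0.57) and MALAT1 ORFs of 174 nt (-0.094 to 3.05) and 33 nt (-1.64, range -1.68 to 1.15), without serum starvation monosome library B the MALAT1 ORFs of 33 nt (-1.68) and 114 nt (-0.20 to 3.84), RNY1 (-2.19 to 3.33) and SNORA62 (-0.20 to 2.88), and SNORA62 also without log phase monosome library B (-0.10). With a monosome library left out, 42927 to 45956 ORFs passed the filter, against 26467, and the all-ORF median was -0.80 to -1.25.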
